A study of Mus musculus with 384 samples.

Results

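The genes described here are 10 Wnt ligands, Wnt2, Wnt2b, Wnt4, Wnt5a, Wnt5b, Wnt6, Wnt7b, Wnt9a, Wnt10b and Wnt11, taken by name from the 23422 genes of the count table. The table of cells that passed quality control held 22276 genes and 9 of the 10 ligands, with Wnt6 left out. Single cells were sorted from adult mouse lung to ask which mesenchymal cells carry Lgr5 or Lgr6, receptors that strengthen Wnt signalling. Cells of the Lgr5 line came from 2 Lgr5-CreERT2;R26-Tom mice, in which tamoxifen-activated Cre leaves a lasting tdTomato label in cells that expressed Lgr5 and in their descendants. Cells of the Lgr6 line came from 2 Lgr6-EGFP-CreERT2 mice, in which EGFP marks cells with current activity of the Lgr6 locus. Mice were 7 to 10 weeks old in most of the study's experiments, and both lines were gated as CD31-, CD45-, CD11b- and TER119-, with EpCAM not among the markers listed for that gate. The line, the kind of label and the reporter therefore changed together and cannot be told apart.

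Wnt proteins are secreted, lipid-modified ligands that act over short distances on Frizzled receptors. Porcn attaches the lipid and Wls carries the ligand to the cell surface. Some Wnts chiefly stabilise beta-catenin, whereas others, of which Wnt5a is the best known, mostly act without it, and in the lung mesenchymal Wnts help to pattern the airways and to maintain alveolar progenitors.

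Of 380 single-cell wells, the authors removed 198 and kept the rest, 29 and 28 from the 2 Lgr5 mice and 50 and 75 from the 2 Lgr6 mice. Kept cells held 9748 to 4538878 reads, and the medians of 263129, 272729, 332588 and 1537593 reads show that Lgr6 mouse 2 was sequenced most deeply. Cells were divided at an Acta2 level (smooth muscle actin) of 11 on the log2(TPM + 1) scale, where TPM counts a gene's transcripts per 1000000, corrected for length. Of the Lgr6 cells, 27 of 50 and 38 of 75 were Acta2-high, against 1 of 29 and 0 of 28 Lgr5 cells, and 32 of the kept cells lay within 1 log2 unit of the threshold. In the Acta2-high Lgr6 cells the 8 airway smooth muscle markers summed to 22649 and 24377 CPM (reads per 1000000 reads), against 996 to 1749 CPM in the Acta2-lower cells of the 4 mice. Acta2 is 1 of these 8 markers, so part of this gap was fixed by the threshold that made the classes. The 8 epithelial markers summed to 17 and 24.1 CPM in the Acta2-high cells, with Epcam at 0, and to 4253 to 67841 CPM in the Acta2-lower cells, of which the Lgr5 mice were at 67841 and 35487 CPM. Of the 6 immune markers, 1 to 3 were at 0 in the Acta2-lower cells of each mouse and 5 and 3 in the Acta2-high cells. Lyz2, which alveolar type 2 cells express too, made up 99.6 to 99.95% of their summed reads in Acta2-lower cells, and the other 5 genes together were at 3.27 to 26.1 CPM there and at 0 and 5.71 CPM in Acta2-high cells. Epithelial RNA thus moved with the Acta2 class and was highest in the Lgr5 line, and its part in the results below was not tested. Lgr5 reads were found in 23, 21, 11 and 28 of the kept cells of the 4 mice, and Lgr6 reads in 8, 9, 13 and 26, so reads of either receptor were found in both lines.

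Per transcript length, 1 ligand stood above the rest. Averaged over cells and then over the 4 mice, Wnt5a was at 125.6 ± 39.8 TPM (SD, n = 4 mice), and its lowest mouse lay above the highest mouse of every other ligand. Wnt9a followed at 8.40 ± 4.46 TPM, Wnt4 at 7.33 ± 1.57 TPM and Wnt2 at 6.92 ± 5.24 TPM, all with overlapping ranges over mice. Wnt2b was at 2.39 ± 2.28 TPM, and the remaining 5 ligands were below 1 TPM, from Wnt11 at 0.635 ± 1.137 TPM through Wnt6, Wnt5b and Wnt10b to Wnt7b at 0.0690 ± 0.0621 TPM. Apart from Wnt5a, neighbours in this order did not differ beyond their spread over mice. Similar mean levels were reached in different ways, Wnt4 through few reads in many cells and Wnt2 through many reads in few cells.

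**Figure D1:**
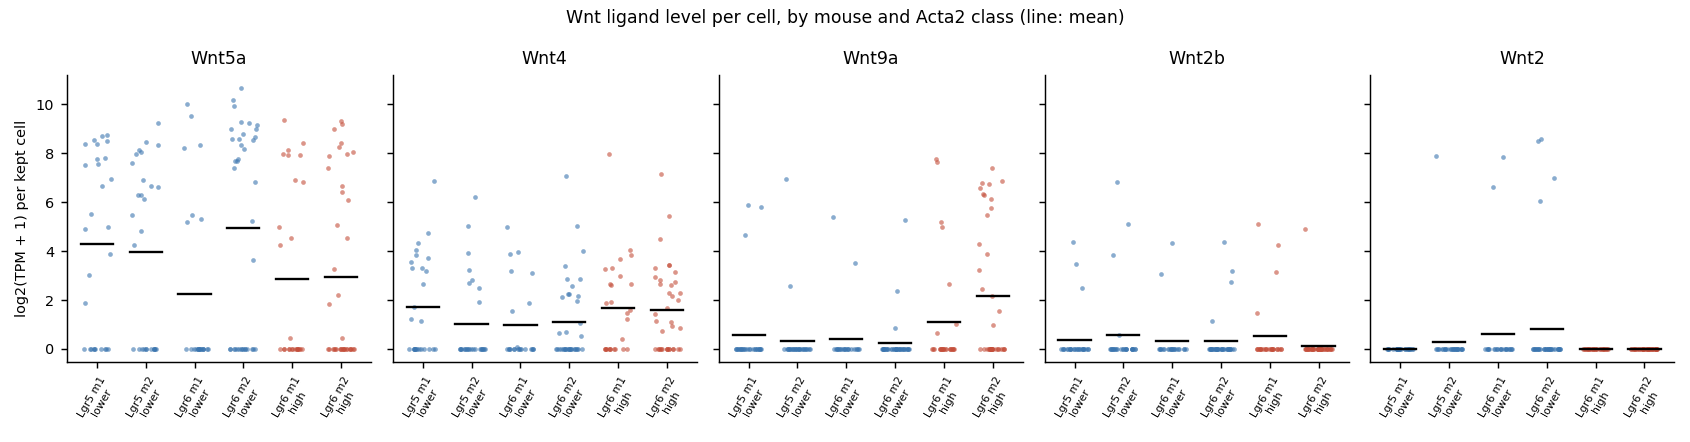
Level of the 5 most widely detected ligands in each kept cell, as log2(TPM + 1), by mouse (m1 and m2) and Acta2 class, with blue for Acta2-lower cells, red for Acta2-high cells and a black line for the mean. The single Acta2-high Lgr5 cell is not drawn. Wnt5a-positive cells are found in all 6 columns, whereas the 2 Acta2-high columns of Wnt2 are at 0.

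Wnt5a, the ligand most tied to beta-catenin-independent signalling, lies at chr14:28504750-28527448 on the plus strand of build GRCm38, on which all gene positions here are given. It was read in 96 kept cells (52.7%; 95% Clopper-Pearson interval 45.23 to 60.18%). Intervals of this kind cover counting error only. By mouse it was read in 18 of 29 and 17 of 28 Lgr5 cells and in 19 of 50 and 42 of 75 Lgr6 cells. Positive cells held a median of 110 reads and a median level of 7.73 on the log2(TPM + 1) scale, so detection was not a matter of single reads. Mean TPM per mouse was 117.6, 103.9, 97.03 and 183.9, the highest value belonging to the most deeply sequenced mouse, Lgr6 mouse 2. On the mean log2(TPM + 1) scale, which weights the share of positive cells more, the Lgr5 mice stood at 4.13 and 3.98 and the Lgr6 mice at 2.598 and 3.93. Both Lgr5 mice were therefore above both Lgr6 mice on this scale, as they were for 26.6% of 19667 genes. The line means differed by 0.79, with Lgr6 mouse 1 furthest from the rest, although log2 of the mean TPM turned the difference to -0.27. Reads were counted in 9 of 23 Acta2-lower cells with Pdgfra reads (39.1%) and in 56 of 93 without (60.2%). The 3 genes with the highest mean within-mouse correlation to Wnt5a over cells were Enpp2 (r = 0.42, 4 mice), which encodes autotaxin, 9130209A04Rik (r = 0.38, 2 mice) and Adamts10 (r = 0.38, 4 mice), out of 10295 genes considered; cells of 1 mouse share depth and dissociation, and these values are descriptive.

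Wnt9a, a ligand that acts through beta-catenin, lies at chr11:59306928-59333552 on the plus strand and was read in 35 cells (19.2%), in 3 of 29, 3 of 28, 9 of 50 and 20 of 75 cells of the 4 mice. In Lgr6 mouse 1 it was read in 7 of 27 Acta2-high cells (25.9%) and 2 of 23 Acta2-lower cells (8.70%). In Lgr6 mouse 2 the figures were 17 of 38 (44.7%, interval 28.62 to 61.70%) and 3 of 37 (8.11%). The share was higher in the Acta2-high cells of both mice, by 17.2 and 36.6 percentage points. After every cell was thinned to 99000 reads the shares were 19.05% and 29.7% in Acta2-high cells and 6.25% and 8.33% in Acta2-lower cells, the same order. Over all cells, 24 of 35 Wnt9a-positive cells (68.6%) were Acta2-high, against 42 Wnt9a-negative cells (28.6% of those). Counted by reads the order was the opposite in Lgr6 mouse 1, where 243 of the 244 Wnt9a reads of Acta2-lower cells of Lgr6 mouse 1 came from 1 cell. The genes most like Wnt9a by the same measure were D630037F22Rik (r = 0.44), Postn (r = 0.43), which encodes the matrix protein periostin, and Parm1 (r = 0.37). These means hid wide differences between mice, with D630037F22Rik at r = 0.90 in Lgr5 mouse 2 and r = 0.056 in Lgr6 mouse 2.

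Wnt2, which with Wnt2b is known for specifying the lung field in the embryo, lies at chr6:17988940-18030585 on the minus strand, and its reads were confined to few of the kept cells. It was read in 0 of 29, 1 of 28, 2 of 50 and 4 of 75 cells, 7 in all (3.85%). Those 7 cells held 83 reads in Lgr5 mouse 2, 2 and 45 reads in Lgr6 mouse 1 and 198, 327, 478 and 686 reads in Lgr6 mouse 2. Their levels ran from 6.07 to 8.60 on the log2(TPM + 1) scale, so even the cell with 2 reads was at 6.63. All 7 were Acta2-lower cells, and all 7 had reads of Pdgfra, the receptor that marks alveolar fibroblasts, at 4.74 to 9.97 on the same scale. None had Epcam reads, but 3 of the 7 had reads of the epithelial gene Sftpc. The cell with 2 Wnt2 reads had Sftpc at 15.05 and the fibroblast collagen gene Col1a2 at 0, and the Lgr5 cell had Sftpc at 9.40 and Col1a2 at 7.46, all on the log2(TPM + 1) scale. Pdgfra was read in 20 of the cells without Wnt2 (11.4%). Among Acta2-lower cells, Wnt2 was read in 7 of 23 with Pdgfra (30.4%, interval 13.21 to 52.92%) and 0 of 93 without (interval 0 to 3.89%). Their median depths were 516523 and 363225 reads. The rest of the Pdgfra-positive cells, 16 of 23, had no Wnt2 read.

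**Figure D2:**
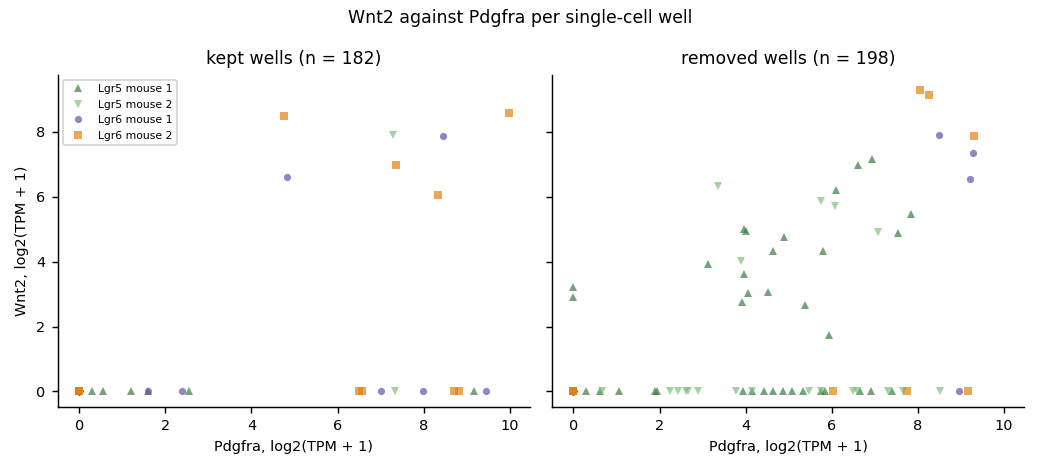
Wnt2 against Pdgfra in each single-cell well, both as log2(TPM + 1), for the kept cells at left and the 198 removed wells at right, with a symbol for each mouse. All 7 Wnt2-positive kept cells and 28 of 30 Wnt2-positive removed wells also had Pdgfra reads.

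The authors removed wells that had reads of Ptprc or Pecam1, an immune and an endothelial marker, above a TPM of 1, too few or too many genes, or low housekeeping expression. In these wells the pairing was counted as well. Wnt2 was read in 30 of 198 removed wells, 24 of them from the Lgr5 line. Of these 30 wells, 28 also had Pdgfra reads (93.3%), against 41 of the wells without Wnt2 (24.4%), and 0 of 30 were Acta2-high although 15 removed wells were. In Lgr5 mouse 1, Wnt2 was read in 19 of 66 removed wells (28.8%) and 0 of 29 kept cells. Many of these wells held RNA of several cell types, since 22 of the 30 had reads of Ptprc and 22 had reads of Pecam1, and 20 had both above a TPM of 1. Wells with both had a median of 9996 genes, and in them Pdgfra was read in 19 of 20 wells with Wnt2 and 17 of 34 without. Depth also differed, with medians of 292681 reads in wells with Wnt2 and 170088 in those without. Among wells with at least 99000 reads that did not have both markers, Pdgfra was read in 8 of 9 wells with Wnt2 and 20 of 72 without (27.8%), at medians of 913766 and 317368 reads. The part of depth and of mixed wells in this pairing was not tested.

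The gene starts of Wnt2, read in Acta2-lower cells alone, and of Wnt9a, read in a larger share of Acta2-high cells, are shown for context, chosen after their values were seen, from RefSeq on build GRCm38.p6, each 250 bases before to 50 bases after the start, on the strand of the gene. The Wnt2 window lies at chr6:18030396-18030695 on the minus strand, and the Wnt9a window at chr11:59306680-59306979 on the plus strand. Capitals mark matches, on either strand, to an E-box (CANNTG) or TATAA.
Wnt2: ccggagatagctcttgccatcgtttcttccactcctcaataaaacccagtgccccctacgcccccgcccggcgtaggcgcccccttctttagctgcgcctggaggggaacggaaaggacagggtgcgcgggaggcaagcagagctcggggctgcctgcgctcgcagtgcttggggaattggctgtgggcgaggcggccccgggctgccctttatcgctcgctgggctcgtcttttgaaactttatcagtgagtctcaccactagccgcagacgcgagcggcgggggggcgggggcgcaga
Wnt9a: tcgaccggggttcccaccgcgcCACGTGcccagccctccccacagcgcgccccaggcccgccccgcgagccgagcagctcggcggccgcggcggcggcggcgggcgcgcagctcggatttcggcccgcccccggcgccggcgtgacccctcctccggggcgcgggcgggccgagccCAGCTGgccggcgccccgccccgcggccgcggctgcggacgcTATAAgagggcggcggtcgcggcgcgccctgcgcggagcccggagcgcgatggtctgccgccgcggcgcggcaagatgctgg
The Wnt9a window was 83.3% G and C and held 2 E-box matches and 1 TATAA. The Wnt2 window was 65.7% G and C and held no match. Of 32851 such windows of all genes, 72.3% held an E-box and 24.9% held TATAA, and the median G and C content was 52.7%. The CArG box, which serum response factor binds in smooth muscle genes, was found in 1.63% of all windows and in none of the windows of the 8 ligands with an entry, Wnt5a and Wnt7b having none. CATTCC (TEAD factors), in 14.7% of all windows, and CTTTGA (TCF/LEF factors), in 16%, were absent from both printed windows. These matches describe the letters and say nothing of binding.

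Wnt4, best known for kidney and female reproductive tract development, lies at chr4:137277489-137299726 on the plus strand and was the ligand read in the second largest number of cells, 15 of 29, 8 of 28, 24 of 50 and 44 of 75, or 91 in all. Its positive cells held a median of 8 reads and a level of 2.66, far below Wnt5a, and the share dropped to 30.1% after thinning to equal reads. It was higher in Acta2-high cells of both Lgr6 mice, at 59.3% against 34.8% and 63.2% against 54.1%. Thinned, the same shares were 38.1% against 25% and 40.5% against 22.2%, over 21 against 16 and 37 against 36 cells deep enough to thin. Median depths of all kept cells of these classes were 418813 against 165685 and 1546057 against 1511706 reads. In 7 of the 91 cells, with 1 to 5 reads each, TPM was nevertheless listed at 0, as it was in 3 of the Wnt5a cells and 1 of the Wnt9a cells. Of the 31-base words of its transcripts, 6.62% also occurred in other genes (2647 of them), so low Wnt4 counts are uncertain. The same holds for Wnt5a, with 4.18% of its words in 2741 other genes (299 of the words in Gm2670), for Wnt7b, with 4.82% shared with AU022754, and for Wnt11, with 8.02% shared with Gm8398. Wnt2b, a relative of Wnt2 at chr3:104945272-104961921 on the minus strand, was read in 3, 4, 6 and 5 cells, 18 in all (9.89%), with a median of 13.5 reads. In Lgr6 mouse 1 the Wnt2b share was 14.8% in Acta2-high and 8.70% in Acta2-lower cells, and in Lgr6 mouse 2 it was 2.63% and 10.8%, opposite orders.

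**Figure D3:**
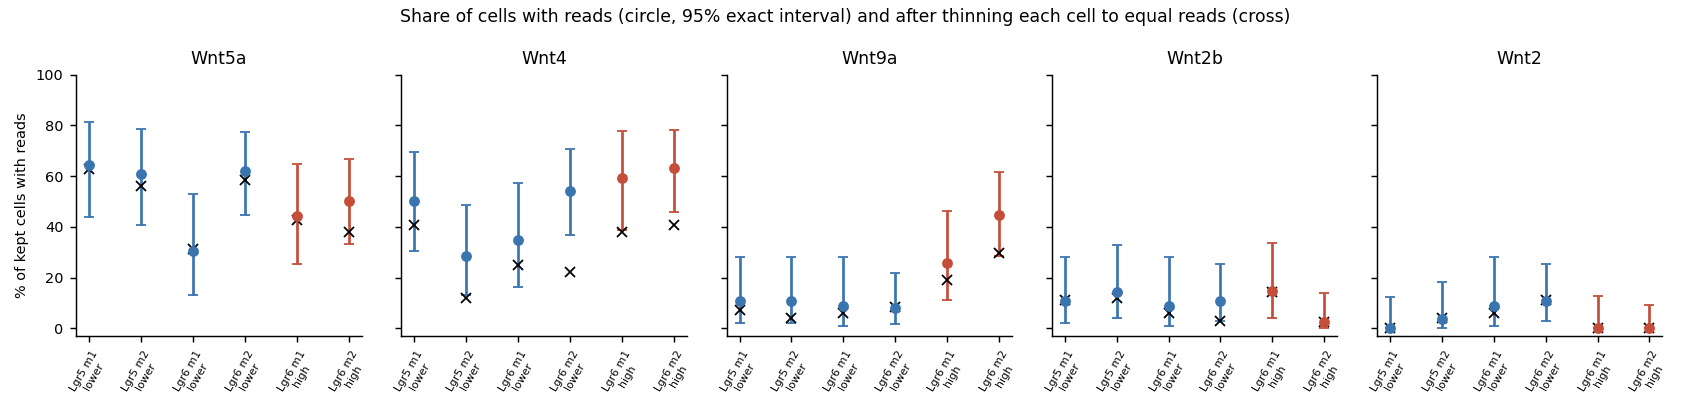
Percent of kept cells with reads of each ligand, by mouse (m1 and m2) and Acta2 class, with circles for all reads, bars for the 95% Clopper-Pearson interval and crosses for the share after thinning each cell to 99000 reads. Wnt9a is at 25.9% and 44.7% in the 2 Acta2-high columns and at 8.70% and 8.11% in the Acta2-lower columns of the same mice.

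A share of cells with reads needs a background. Among removed wells, 21 had Ptprc but not Pecam1 at a TPM of 1 or more, with a median of 380995 reads, and 29 had Pecam1 but not Ptprc at that level, with a median of 242752, against 575252 reads in kept cells. Wnt4 was read in 38.1% and 41.4% of these wells and Wnt5a in 42.9% and 44.8%, close to their shares in kept cells. For Wnt9a the shares were 4.76% and 0%, below the 19.2% of kept cells, but only 3 of these wells were of the Lgr6 line. In kept cells of the Lgr5 line the Wnt9a share was 10.5% (interval 3.96 to 21.52%), and in removed wells with both markers 16.7%. For Wnt2 the shares in the wells with 1 marker were 4.76% and 6.90%, above the 3.85% of kept cells. Pdgfra itself was read in 42.9% and 31.03% of the wells with 1 marker, so these wells hold mesenchymal RNA too and are no clean negative. Detection of Wnt4, Wnt5a, Wnt2 or Wnt2b, the last in 4.76% and 24.1%, thus did not by itself set kept cells apart, although the mean level of Wnt5a was higher in kept cells.

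**Figure D4:**
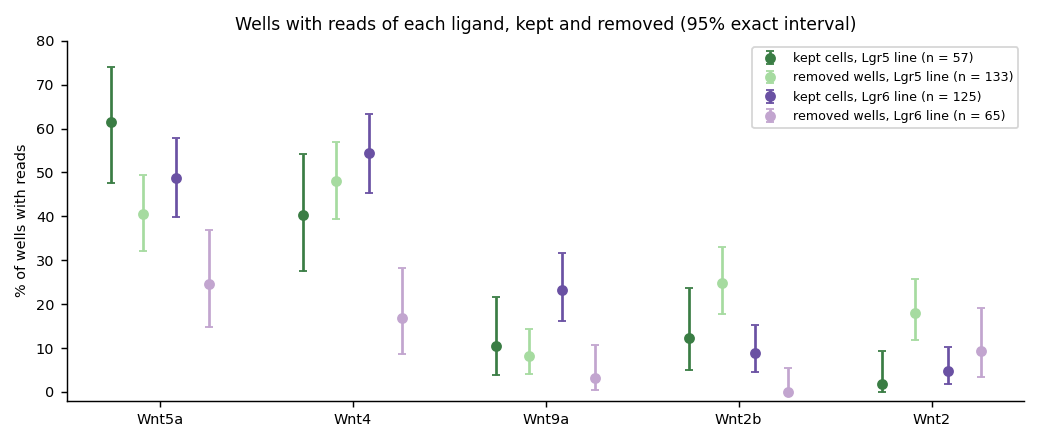
Percent of wells with reads of each of 5 ligands in kept cells and removed wells of each line, with 95% Clopper-Pearson intervals. Wnt2b was read in 24.8% of the removed wells of the Lgr5 line (33 wells) and in 0 of 65 of the Lgr6 line, at median depths of 241124 and 25802 reads.

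The other 5 ligands were read in 1 to 4 kept cells each. Wnt7b, in lung chiefly an epithelial ligand, was read in 4 cells with 1, 6, 13 and 24 reads, and 3 of the 4 also had Epcam reads. The single Wnt6 read fell in an Epcam-positive cell with the surfactant gene Sftpc at 18.41 on the log2(TPM + 1) scale. Wnt11, another ligand of beta-catenin-independent signalling, had 1 and 2 reads in 2 cells of Lgr5 mouse 2 and 98 reads in 1 Acta2-high cell of Lgr6 mouse 2. Wnt10b had 1 read in each of 2 cells of Lgr5 mouse 1, both with Lgr5 and Lgr6 reads. The 6 Wnt5b reads came from 1 cell of Lgr6 mouse 1, the same Pdgfra-positive cell that held 45 Wnt2 reads.

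Most cells carried few of these ligands. None of the 10 was read in 23 of the kept cells, 1 in 81, 2 in 61, 3 in 14, 4 in 2 and 5 in 1, with a median of 1 per cell and 2 in the deepest mouse. Wnt4 and Wnt5a were read together in 46 cells, Wnt4 and Wnt9a in 18 and Wnt5a and Wnt9a in 16. Only 1 of the 7 Wnt2 cells also had Wnt5a reads, and 3 had Wnt4 reads.

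**Figure D5:**
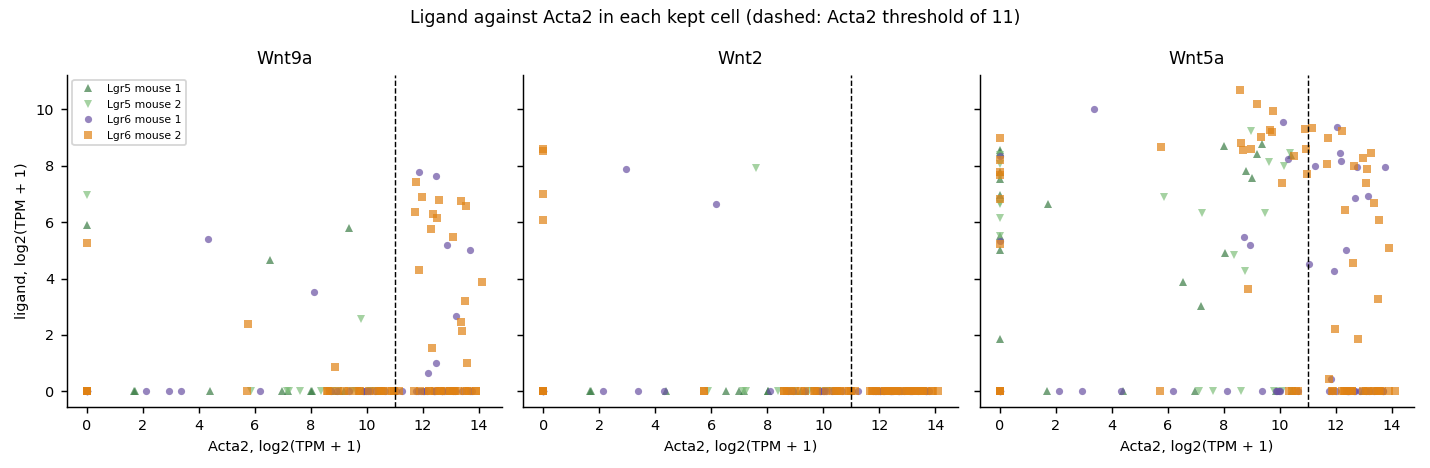
Wnt9a, Wnt2 and Wnt5a against Acta2 in each kept cell, all as log2(TPM + 1), with a symbol for each mouse and a dashed line at the Acta2 threshold of 11. Of the Wnt9a-positive cells 24 of 35 are right of the line, of the Wnt2-positive cells 0 of 7 and of the Wnt5a-positive cells 31 of 96.

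Acta2-high and Acta2-lower cells were compared within the Lgr6 line by summing reads per mouse and class and fitting all 13529 testable genes with edgeR's quasi-likelihood test, the mouse as a block. Here 4 genes passed an adjusted p of 0.05 (0.0296% of those tested), and 0 of the 5 ligands tested did. The 4 were Acta2, which defined the classes, and the surfactant genes Sftpc, Sftpa1 and Sftpd, which were lower in Acta2-high cells. Wnt2 had 0 of 81402730 reads in Acta2-high cells of both mice, and 47 and 1689 reads of 11223789 and 60899303 in the Acta2-lower cells. With 3 reads as the floor over the group of Acta2-high cells, the 24.1 CPM of Acta2-lower cells was 653-fold above that floor. Within mice, with the floor per library, the folds were 24.6 and 589. These folds are not lower limits, since a single Wnt2-positive Lgr6 cell held from 2 to 686 reads. The p of Wnt2 from edgeR was 0.602 after Benjamini-Hochberg adjustment. Wnt2 passed the filter on low counts through the Acta2-lower cells alone, 6 cells of which 4 came from Lgr6 mouse 2, so no call of it by any tool is used here. Finding 0 of 27 and 0 of 38 Acta2-high cells with a read allows shares of cells with reads of up to 11.1% and 7.89% (3 of each number). In the Acta2-lower cells of the same mice the shares were 8.70% and 10.8%. Of the 662 genes read, as Wnt2 was, in 6 Acta2-lower Lgr6 cells, 4.83% likewise had no read in Acta2-high cells.

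Wnt9a had 13.9 and 27.9 CPM in the Acta2-high cells and 22.6 and 0.454 CPM in the Acta2-lower cells of Lgr6 mice 1 and 2, opposite directions, with a log2 difference of 2.59 ± 3.19 (SE) and an adjusted p of 1 in edgeR. Wnt5a was at 195.5 and 150.7 CPM in Acta2-high and 295 and 341 CPM in Acta2-lower cells, lower in both mice, with a log2 difference of -0.89 ± 0.47 and an adjusted p of 0.878 in edgeR. In Lgr6 mouse 1 the order rested on few cells, since of 6780 Wnt5a reads 1 Acta2-high cell held 2281 and 1 Acta2-lower cell 1978. The shares of Wnt5a-positive cells did not follow, being 14.01 points higher in Acta2-high cells of mouse 1 and 12.2 points lower in mouse 2. Wnt4 was at 9.07 and 10.5 CPM against 2.41 and 13.03 CPM, and Wnt2b at 3.64 and 0.867 CPM against 1.299 and 0.790 CPM, with adjusted p of 1 for both in edgeR. Counted by cells instead of reads, Wnt4 and Wnt9a were 2 of 10 ligands with a higher share in Acta2-high cells of both mice, as were 24.1% of all 17025 genes. A gap at least as large as the smaller of the Wnt9a gaps was present in both mice for 1.79% of genes, and Wnt2 was the 1 ligand lower in both, as were 24.2% of genes.

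Between the lines, with each mouse's kept cells summed, edgeR called 0 of 14086 genes (0.0%), 1312 having an unadjusted p under 0.05, and DESeq2 called 567; 0 of the 5 ligands tested passed in either. Wnt9a stood lower in the Lgr5 line, 4.59 and 3.89 CPM, than in the Lgr6 line, 17.8 and 15.1 CPM, with a log2 difference of -1.96 ± 1.26 with an adjusted p of 0.708 in edgeR. Its mean log2(TPM + 1) showed the same separation, 0.56 and 0.34 against 0.78 and 1.22. Wnt2 was also lower on that scale, at 0 and 0.28 against 0.29 and 0.40, though as log2 of the mean TPM the lines overlapped. Wnt5a was at 148.4 and 276 CPM against 242 and 249 CPM (-0.21 ± 0.49, adjusted p of 0.928), overlapping between lines. When the removed wells were added, Wnt5a moved to -2.08 ± 0.54 with an adjusted p of 0.0577 in edgeR. Wnt9a moved to -2.88 ± 0.98 (adjusted p of 0.126) and Wnt2 to -2.32 ± 0.92 (adjusted p of 0.187). In that fit 4102 of 17743 genes had an unadjusted p under 0.05. The added wells differed by line, with Ptprc read in 56.4% of those of the Lgr5 line and 4.62% of the Lgr6 line. For Pecam1 the shares were 63.9% and 0%. The part of immune and endothelial RNA in these shifts was not tested. Wnt2b was at 10.4 and 5.79 CPM against 2.90 and 0.853 CPM (2.12 ± 1.58, adjusted p of 0.759). All but 11 of the Wnt2b reads of Lgr5 mouse 1 (98 reads) came from 1 Epcam-positive cell with Sftpc at 19.20 on the log2(TPM + 1) scale and Col1a2 at 0. Without that cell the mouse fell from 11.04 to 1.307 CPM, not scaled by TMM, below the 2.81 CPM of Lgr6 mouse 1, and the lines overlapped. Wnt4 was at 16.6 and 17.8 CPM against 6.90 and 12.05 CPM (0.86 ± 1.15, adjusted p of 0.865). Without the cell with the most Wnt4 reads, Lgr5 mouse 2 fell from 17.7 to 5.16 CPM, not scaled by TMM. That was below the 6.68 and 11.7 CPM of the Lgr6 mice, so the lines overlapped for Wnt4. Wnt2 was at 0 and 6.33 CPM against 1.68 and 13.98 CPM (-1.31 ± 2.31, adjusted p of 0.902). On the mean log2(TPM + 1) scale both Lgr5 mice were above both Lgr6 mice for 26.6% of 19667 genes and below for 15.8%, and an exact two-sided permutation test of 2 against 2 mice cannot go below p = 0.333.

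The Lgr6 line differed from the Lgr5 line in its Acta2-high cells, so the lines were also compared among Acta2-lower cells alone. There edgeR called 0 of 12958 genes (0.0%), with 976 at an unadjusted p under 0.05 and 389 called by DESeq2, and 0 of 5 ligands. The log2 differences were -0.65 ± 0.58 for Wnt5a, 1.13 ± 1.66 for Wnt4, 2.92 ± 1.97 for Wnt2b, -2.46 ± 2.32 for Wnt2 and -1.53 ± 2.06 for Wnt9a, with adjusted p of 0.890 to 0.964 in edgeR. The Wnt9a difference rested on the 1 cell named above, and without Lgr6 mouse 1 it was 3.25.

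Nor were other genes of the pathway called, where edgeR called 0.0%, 0.0296% and 0.0% of all genes in the 3 comparisons. Of the 9 other Wnt ligands in the table, Wnt1 and Wnt3 had 1 read each, Wnt3a 3 reads in 1 cell and Wnt16 reads in 1 cell alone, and the other 5 had none. The secretion genes were widely read, Wls in 14, 18, 29 and 47 cells of the 4 mice and Porcn in 29 cells, and 0 of 6 passed the edgeR test in any of the 3 comparisons. Between lines the 6 had a median log2 difference of -0.03, the 5 ligands tested -0.21 and all genes -0.05. Of the 16 receptor genes 13 were tested, with a median of -0.95 between lines, 0.90 between Acta2 classes and -1.11 among Acta2-lower cells, and 0 called, beside medians over all genes of -0.05, 0.02 and -0.0037. For the 7 inhibitors of Wnt ligands tested the medians were 0.21, -3.51 and -1.04, again with 0 called. Wif1, which binds Wnts outside the cell, was read in 11, 8, 2 and 3 of the 29, 28, 50 and 75 cells of the 4 mice. Notum, the enzyme that removes the Wnt lipid, was read in 5, 6, 2 and 4. Among the other inhibitors listed, Cer1 was read in 12, 7, 10 and 21, Trabd2b in 8, 6, 4 and 13 and Sfrp1 in 10, 2, 5 and 12. Apcdd1 was read in 3, 0, 5 and 5, Sfrp2 in 1, 0, 2 and 2, Frzb in 1 cell, and Sfrp4 and Sfrp5 in 0. Of the 12 target genes, 12, 10 and 10 were tested and 0 called.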

How the data were processed

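Single cells were processed with SmartSeq2. Per the submitters' processing notes, bcl2fastq 2.17.1.14 and kallisto 0.43.0 were used on mouse build mm10. The authors deposited estimated read counts per gene, given as whole-number counts, and log2 values of TPM + 1, both for all wells, and the log2 table again for the cells that passed their quality control, which used the number of genes, housekeeping expression, the R26-Tom reporter, and Ptprc and Pecam1 (TPM under 1); the rule that dropped genes from that table is not given in the sources used here. No doublet caller was run here. A table of scaled counts was not used. No column of the authors' own comparisons was present. Numbers of cells in the 4 pooled wells are not stated.

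Raw counts were added up over the kept cells of each mouse, or of each Acta2 class with at least 3 cells in a mouse, filtered with filterByExpr, scaled by TMM and fitted with edgeR 4.0.16 quasi-likelihood (R 4.3.3), with Benjamini-Hochberg adjustment over all genes tested and a threshold of 0.05. The mouse was a block between classes. CPM values of comparisons are TMM-scaled, those of marker lists and of the Wnt2 floor are not. DESeq2 1.42.0 and limma 3.58.1 served as alternatives, with other filters, scalings, Acta2 thresholds of 10 and 12, thinning to 99000 reads (163 cells, 19 shallower ones left out) and leaving out each mouse. Where 1 mouse remained in a line, it was assumed to vary like the other line's mice. Leaving out Rn45s, a ribosomal RNA with 5.66 to 66.8% of a kept cell's reads, was added after the data were seen. The fits were also run on simulated counts with preset dispersions that were not taken from these data. A minimum recovery of changed genes was required between lines but not between Acta2 classes. That run therefore does not show how the fits perform at the spread of these ligands. Shares have Clopper-Pearson intervals over cells, which cover counting error only, because cells of 1 mouse are not replicates. Reads carry no molecular identifiers. The transcripts' 31-base words were compared on GENCODE transcripts of GRCm38.

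Samples were grouped by mouse from their titles, and each well is 1 library. The replicate is the mouse, 2 per line. Mouse numbers did not pair the lines (correlation of the mouse 1 minus mouse 2 difference between lines of 0.039 over 13154 genes). The members and gene lists were chosen with earlier results of these data known. Other genes were named by a fixed rule, the 3 with the highest mean within-mouse correlation to a ligand over cells, for ligands and genes read in at least 18 kept cells, and the genes past the threshold between Acta2 classes. Wif1, Notum and the other inhibitors, Wls and Porcn were named from the lists after their values were seen.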

Additional observations from a re-analysis of the deposited data

Results flagged for a closer look

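Reads of the ligands were also present in wells that entered no comparison, above the 3 reads that a count of 0 allows. Of the 4 wells that held pooled cells, that of Lgr5 mouse 1 had Wnt2 at 8.39 (337 CPM) and Wnt4 at 3.08 (6 reads) on the log2(TPM + 1) scale, with Pdgfra at 8.02 and Acta2 at 0. The pool of Lgr6 mouse 2 had Wnt5a at 6.55 (355 reads) and Wnt9a at 5.25 (55.4 CPM) on the same scale, with Acta2 at 13.89 and no Wnt2 read. The pools of Lgr5 mouse 2 and Lgr6 mouse 1 had no read of any of the 10 ligands, where 3 reads would be 14.6 and 45.1 CPM.

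Of the 198 wells removed by quality control, 37.9% had reads of Wnt4, 35.4% of Wnt5a (16066 reads in all), 16.7% of Wnt2b, 15.2% of Wnt2 (4536 reads), 6.57% of Wnt9a, 6.06% of Wnt11, 3.03% of Wnt10b, 2.53% of Wnt5b and 2.02% of Wnt7b, and 0 of Wnt6. Kept cells, in comparison, held 1819 Wnt2 reads, and 3.85% of them had any.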

How the results depend on the processing

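With 2 mice per line and reads that fall in few cells, fits of these ligands rest on few cells. As a share of tested genes, the calls between lines went from 0 to 4.03% with DESeq2 (567 genes), 2.07% with no filter on low counts (408 genes), 0.138% with thinned cells, 0.27% and 0.114% with limma on mean TPM (pseudocounts of 1 and 0.1), 0.738% with all single-cell wells, and 0 to 0.217% when 1 mouse was left out. Without Lgr6 mouse 1 there were 34 calls and without Lgr6 mouse 2 there were 7. Between Acta2 classes the 0.0296% (4 genes) became 6.82% with DESeq2 (923 genes), 0.0517% with DESeq2's size factors in edgeR, 0.476% with thinned cells, 0.31% and 0.0813% with limma, 0.124% and 0 at Acta2 thresholds of 10 and 12, and 0.052% without Rn45s. Wnt2 was the 1 ligand among the 923 genes of DESeq2. It had no read in Acta2-high cells and passed the filter through the Acta2-lower cells alone, so that call is not used. Leaving out a mouse left no test there. Among Acta2-lower cells the 0 became 3.0% with DESeq2 (389 genes), 0.818% with no filter, 0.0559% with thinned cells, 0.216% and 0.0232% with limma, and 0.0409% to 0.501% (6 to 74 genes) when 1 mouse was left out.

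With the mouse number as a replicate block the counts were 0 between lines and 0 among Acta2-lower cells, and without the replicate block 0 between Acta2 classes. The block changed no ligand's call.

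Directions that turned, as log2 differences, were these, and the cause was not tested. Between lines, Wnt4 was at -0.16 and -0.18 with limma, and leaving out 1 mouse gave -11.70 to 0.91 for Wnt2, the highest without Lgr6 mouse 2, and -0.64 to 0.16 for Wnt5a, the highest without Lgr5 mouse 1. Between Acta2 classes, Wnt2b was at -0.96 and -3.87 at thresholds of 10 and 12 and Wnt9a at -2.62 at 10. With 1 mouse each, Wnt9a ranged from -0.75 (without Lgr6 mouse 2) to 5.93 and Wnt4 from -0.31 (without Lgr6 mouse 1) to 1.87. Among Acta2-lower cells, Wnt9a was at 0.88 with thinned cells, 1.12 and 1.504 with limma, 0.33 with the replicate block, and -2.52 to 3.25 when 1 mouse was left out. For differences of mean log2(TPM + 1), Wnt5a was at -0.27 as log2 of mean TPM, and Wnt11 at 0.037 with a pseudocount of 0.1. Leaving out 1 mouse gave -0.35 to 0.33 for Wnt4 and -0.050 to 0.050 for Wnt11, the last being 0.049 without Lgr5 mouse 1. Of the other values of single ligands, 243 were counted as the same and 8 as moved. For fits with a p, the same meant an equal direction and side of the threshold. For fits without a p it meant an equal direction and a change within the SE of the main fit. Mean differences had to keep their direction, and shares had to stay inside their Clopper-Pearson interval.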
